A study of Mus musculus with 14 samples.

Results

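The semaphorin, ephrin, Slit and netrin guidance genes were read in bulk RNA-seq of mouse plexiform neurofibroma (PN), a nerve tumor that forms around dorsal root ganglia (DRG). Members were the rows of the deposited count table whose symbol names a semaphorin of classes 3 to 7, a plexin, a neuropilin, an ephrin, an Eph receptor, a Slit, a Robo, a netrin or netrin-G, an Unc5 receptor or Dcc, and 71 of 24062 rows met this rule. They comprised 37 ligand genes and 34 receptor genes.

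The samples were 3 control DRG with nerves from Nf1fl/fl mice, which carry the floxed Nf1 allele without Cre, and 11 PNs from DhhCre;Nf1fl/fl mice, in which the Dhh promoter drives Cre in the Schwann cell (SC) lineage. By MRI at 7 and 9 months of age, 5 PNs were slow growing, with a volume that altered by less than 5 mm3, and 6 were fast growing, with an increase above 35 mm3. All mice were 9 months old, received no drug and had a mixed C57BL/6, I-129 and FVBN background. PN libraries carry mouse numbers and the controls the names DRG3, DRG4 and DRG5, and where nothing states that samples came from separate animals, p-values measure only the spread between these samples. In this model only SC-lineage cells lose Nf1, so the PN libraries mix cells with and without the allele. The study worked with DhhCre;Nf1fl/fl mice of both sexes, and the sex and the sequencing batch of each library were not given in the sources used here.

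These genes encode cues that steer growing axons and migrating cells. Secreted class 3 semaphorins act through plexins, most of them with a neuropilin as the binding partner, although Sema3e binds plexin D1 directly, and membrane semaphorins of classes 4 to 7 bind plexins without one. Ephrins and Eph receptors are both tied to the membrane and signal in both directions at cell contacts, with A-type ephrins held by a lipid anchor and B-type ephrins crossing the membrane. In peripheral nerve they are known for sorting Schwann cells from fibroblasts, where ephrin-B on fibroblasts meets EphB2 on Schwann cells. Slits act through Robo receptors, and netrins through Dcc and Unc5 receptors.

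Depth was 9596773 to 17594164 counts per library, so that 3 counts equalled 0.166 to 0.317 CPM (counts scaled to library size, here by the trimmed mean of M values, TMM). Several libraries stood apart in lists of cell type markers, each scored as the mean log2(CPM + 1). The neuron score was 1.37 in fast-growing PN 1191, 8.89 in slow-growing PN 1203 and 5.83 to 8.14 in the other 12. Skeletal muscle scored 7.70 to 9.65 in controls, 1.12 to 7.51 in slow-growing and 2.36 to 6.96 in fast-growing PNs, and fat scored 7.71 to 8.07, 1.20 to 6.99 and 0.76 to 3.64. Schwann cell markers scored 6.50 to 7.88 in controls, 7.60 to 8.65 in slow-growing and 8.04 to 8.53 in fast-growing PNs, with 6 of 14 called higher in PNs. Every Schwann cell and neuron marker on the lists was detected in the controls and in both PN groups. Control DRG3 had a T cell score of 0.99 against 5.52 and 4.69 in DRG4 and DRG5, and a Schwann cell score of 7.88 against 6.60 and 6.50. In this bulk tissue, fewer cells of a type and less RNA per cell cannot be told apart. For Nf1 itself (chr11:79339693-79581612, mm10) the controls averaged 171 ± 51.5 CPM (SD, n = 3) and the tumors 248 ± 22.9 CPM (SD, n = 11). It was called higher in PNs, with a log2 fold change of 0.54 (SE 0.16, edgeR with Benjamini-Hochberg adjusted p = 0.0215). That call was lost in 2 of 14 fits with 1 library left out. Counts over the whole gene do not resolve the floxed part, so they do not check the genotype labels.

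All 71 members had counts, and 66 had a mean above 1 CPM. Exons of 15 members overlap another gene on the opposite strand and of 5 on the same strand, so reads there cannot be assigned with certainty. Per kilobase of the longest transcript, the highest member of each class was Sema3b (75.9 CPM per kb), Sema6d (32.3), Nrp1 (31.9), Plxnc1 (22.9), Ntng1 (14.2), Sema4f (13.9), Efnb2 (13.6), Slit2 (9.71), Robo2 (8.45), Ephb6 (6.64), Efna5 (6.22), Epha6 (2.89) and Unc5a (2.75). The receptors of the netrin and EphA classes were thus the lowest of these leaders, and the class 3 semaphorin Sema3b the highest. The low-count filter passed 68 members in each comparison with control, leaving out Efna3, Epha8 and Robo3, and 67 between PN groups, where Epha3 was also left out. A call below is an edgeR quasi-likelihood test with a Benjamini-Hochberg adjusted p under 0.05 over all genes tested.

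The comparison of PNs with controls asked which guidance genes differ in established tumors. PNs had more message for 2 of 3 B-type ephrins (Efnb1 and Efnb2), 3 of 5 EphB receptors (Ephb2, Ephb3 and Ephb6), plexins A3, B1 and B3, Ntng1 and 4 semaphorins, and less for Epha3, Unc5b and Sema3a. In numbers, 13 of 68 members were called higher and 3 lower. Of 16283 genes tested, 12.9% were called higher and 13.4% lower, and the median log2 fold change was 0.47 over the members and 0.10 over all genes. Without DRG3 these medians were 0.77 and 0.13, and with the Schwann cell score in the model they were 0.09 and 0.16. Among the members, 50 had a positive log2 fold change, as had all 20 neuron markers, with a median of 0.76 and no call, and all 14 Schwann cell markers, with a median of 1.13. The part of these cells in the members' shift was not tested. Ligands gave 7 higher and 1 lower of 36 tested, and receptors 6 higher and 2 lower of 32. The groups did not overlap for 3 members that were higher (Sema3e, Plxna3 and Plxnb3) and 2 that were lower (Epha3 and Unc5b), where 8.19% and 9.46% of all tested genes behaved so.

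**Figure D1:**
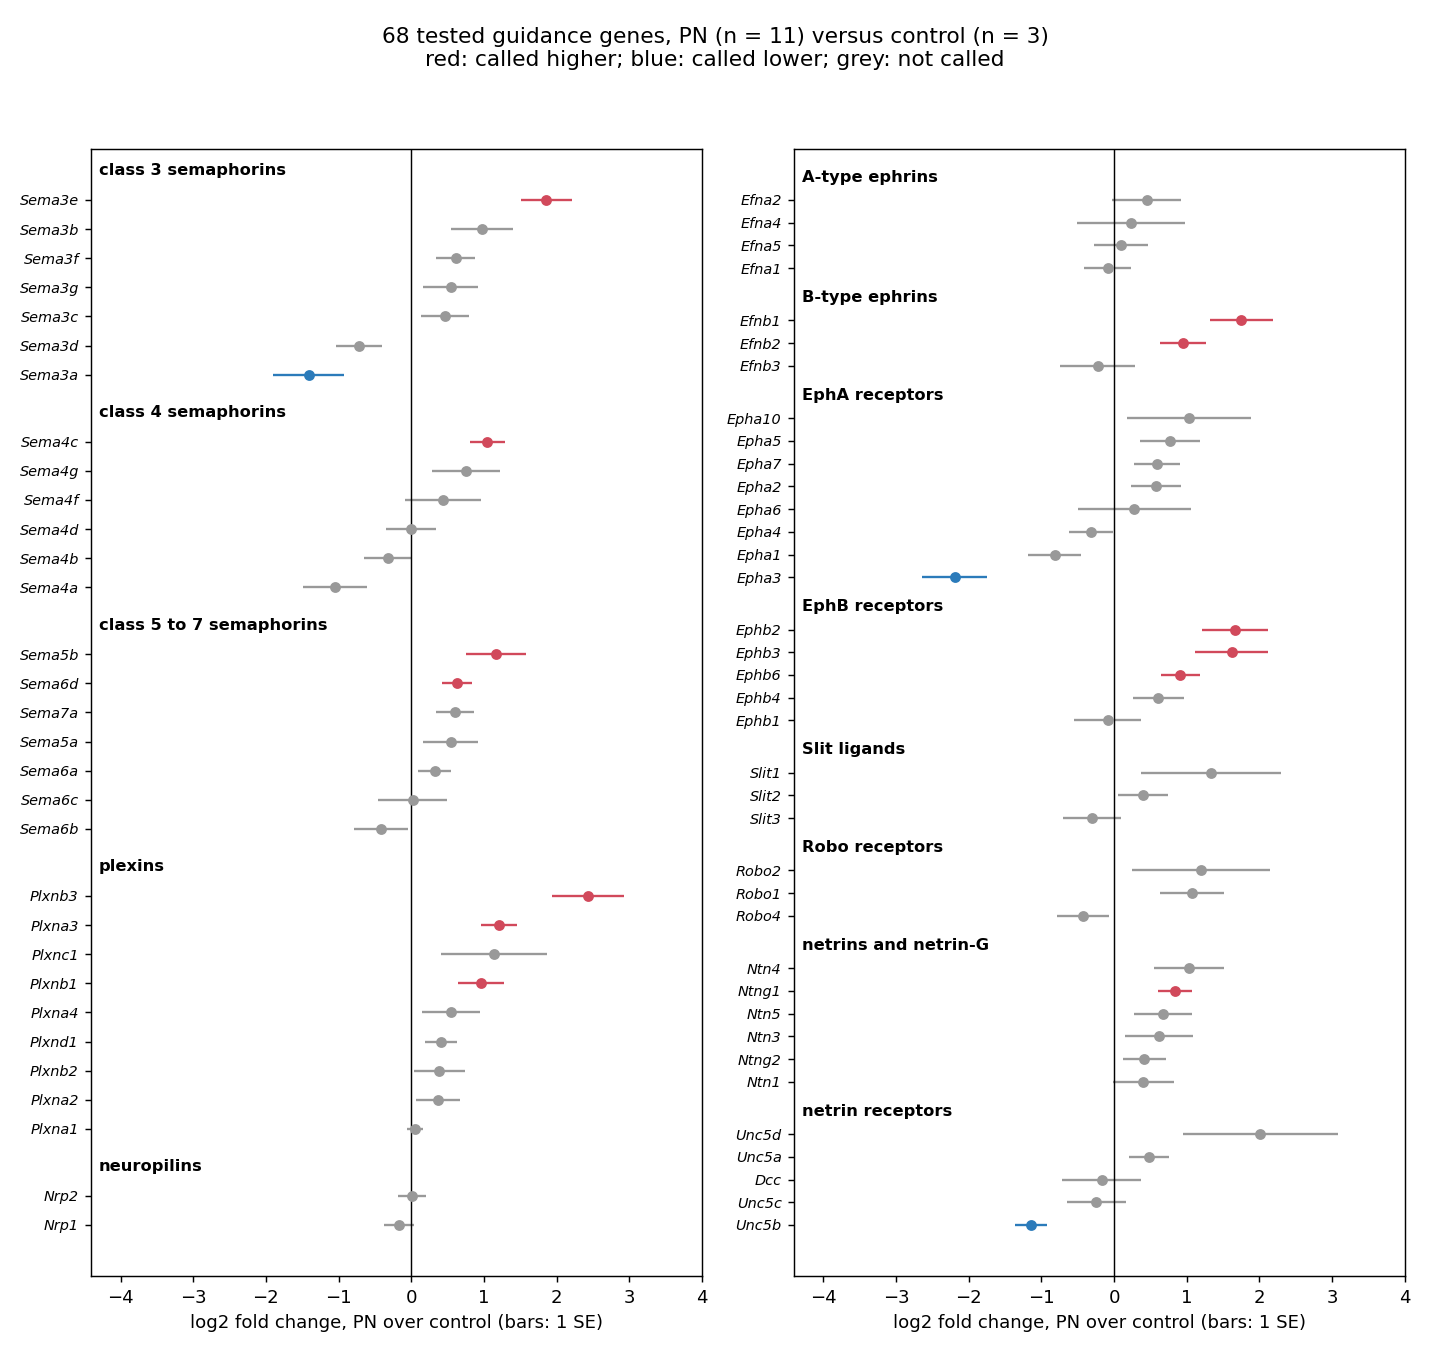
Log2 fold change of each of the 68 tested guidance genes in PNs (n = 11) over controls (n = 3), grouped by class, with bars of 1 SE from the edgeR fit. Red points were called higher (13), blue points called lower (3) and grey points not called, and the red points lie among semaphorins, plexins, B-type ephrins, EphB receptors and netrin-G1.

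Plxnb3 encodes plexin B3, a receptor for the class 5 semaphorin Sema5a. The gene lies at chrX:73757090-73772514 on the plus strand (mm10). Its level was 28.2, 13.1 and 15.8 CPM in controls DRG3, DRG4 and DRG5. It was 64.7, 138, 41.8, 28.6 and 89.2 CPM in slow-growing PNs 1079, 1198A, 1202, 1203 and 1206, and 111 to 148 CPM, with a median of 127, in the 6 fast-growing PNs. Every PN was above every control, although 1203 exceeded DRG3 by under 1 CPM, and the fast-growing PNs formed a narrow band that of the slow-growing PNs only 1198A entered. The log2 fold change was 2.43 (SE 0.49, edgeR with Benjamini-Hochberg adjusted p = 0.00258), the largest among the called members.

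Sema3e, a secreted semaphorin whose receptor is plexin D1, lies at chr5:14025276-14256689 on the plus strand. It stood at 19.3, 6.46 and 9.61 CPM in the controls, at 29.9, 49.8, 25.9, 41.8 and 25.1 CPM in the slow-growing PNs and at 40.8 to 55.7 CPM, median 52.2, in the fast-growing PNs. All 11 PNs exceeded the highest control, and the slow-growing PNs reached from below to inside the fast-growing range. The log2 fold change was 1.86 (SE 0.35, edgeR with Benjamini-Hochberg adjusted p = 0.00151). Epha3, a receptor of A-type ephrins (chr16:63543534-63864175, minus strand), showed the opposite order, with 2.16, 3.97 and 1.69 CPM in the controls, 0.53, 0.30, 0.30, 0.82 and 1.25 CPM in the slow-growing and 0.14 to 0.83 CPM, median 0.51, in the fast-growing PNs. No PN reached the lowest control, but the gene was sparse, with 2 to 15 counts in a PN and 16 to 43 in a control. Its log2 fold change was -2.20 (SE 0.45, edgeR with Benjamini-Hochberg adjusted p = 0.00261).

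The start regions of these 3 genes are shown because they had the pair of largest increases and the largest decrease among the called members. Each runs from 250 bases before to 50 after the RefSeq start (GRCm38.p6), 5′ to 3′ on the gene's strand. Capitals mark matches on either strand to letters chosen after the sequences were seen, namely the SOX core ACAAAG or ACAATG, the GC box GGGCGG, the TEAD motif GGAATG and the AP-1 motif TGANTCA.
Plxnb3, chrX:73756853-73757152, plus strand: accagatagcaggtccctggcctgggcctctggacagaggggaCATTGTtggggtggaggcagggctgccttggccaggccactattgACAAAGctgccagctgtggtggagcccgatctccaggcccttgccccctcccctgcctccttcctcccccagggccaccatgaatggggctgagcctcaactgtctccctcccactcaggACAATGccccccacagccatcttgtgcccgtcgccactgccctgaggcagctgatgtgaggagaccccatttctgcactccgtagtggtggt
Sema3e, chr5:14025026-14025325, plus strand: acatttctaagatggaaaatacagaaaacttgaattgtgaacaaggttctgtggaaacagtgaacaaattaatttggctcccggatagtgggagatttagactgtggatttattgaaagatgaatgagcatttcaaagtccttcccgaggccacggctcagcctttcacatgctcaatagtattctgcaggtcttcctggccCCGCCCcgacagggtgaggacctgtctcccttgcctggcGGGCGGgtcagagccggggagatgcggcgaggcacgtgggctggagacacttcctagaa
Epha3, chr16:63864126-63864425, minus strand: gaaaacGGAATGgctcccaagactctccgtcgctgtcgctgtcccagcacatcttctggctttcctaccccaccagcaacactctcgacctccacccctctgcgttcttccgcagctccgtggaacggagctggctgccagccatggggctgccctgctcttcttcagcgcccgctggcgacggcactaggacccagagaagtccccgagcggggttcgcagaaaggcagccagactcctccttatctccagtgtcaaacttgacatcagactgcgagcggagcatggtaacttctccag

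The Plxnb3 region held 3 SOX cores, which start at -207, -162 and -42 relative to the start site, and 0.767% of all 32851 start regions in the table held at least 3. At least 1 SOX core was present in 28.6% of all regions and in 20.8% of the 77 regions of the 61 members that had one. The Sema3e region had 2 GC boxes, which 35.7% of all regions and 70.1% of member regions contained at least once. The Epha3 region had a single TEAD match, found in 14.7% of all regions, and AP-1 letters occurred in 7.81% of all regions and 3.9% of member regions. These matches are descriptions of the letters in the window.

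Among semaphorins, 4 of 20 were called higher in PNs and 1 lower, beside 12.9% and 13.4% of all genes. Sema4c, a membrane semaphorin that binds plexin B2 (chr1:36548639-36558349, minus strand), stood at 13.6, 10.8 and 13.4 CPM in the controls, at 27.5, 24.0, 22.7, 13.1 and 39.6 CPM in the slow-growing and at 22.3 to 30.4 CPM, median 27.0, in the fast-growing PNs. Only the slow-growing PN 1203 lay within the control range, and the log2 fold change was 1.05 (SE 0.24, edgeR with Benjamini-Hochberg adjusted p = 0.00638). An exon of D430040D24Rik overlaps Sema4c on the opposite strand, and the strand setting of the counting was not given. Sema6d, a membrane semaphorin and a plexin A1 ligand (chr2:124089969-124667770), averaged 145 ± 31.4 CPM in controls, 239 ± 62.7 in slow-growing and 214 ± 29.3 in fast-growing PNs, which gave 0.63 over all PNs on the log2 scale (SE 0.21, edgeR with Benjamini-Hochberg adjusted p = 0.0357).

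The class 5 semaphorin Sema5b (chr16:35541145-35664732) was present at 3.11, 2.03 and 1.48 CPM in the controls, at 5.39, 4.51, 7.21, 7.66 and 7.13 CPM in the slow-growing and at 2.05 to 5.91 CPM, median 3.90, in the fast-growing PNs. The slow-growing PNs all exceeded the controls, whereas the fast-growing PNs overlapped them, and the log2 fold change over all PNs was 1.17 (SE 0.41, edgeR with Benjamini-Hochberg adjusted p = 0.0493). Sema3a, the secreted semaphorin that repels sensory axons through neuropilin 1 (chr5:13125414-13602565), was called lower at a log2 fold change of -1.41 (SE 0.49, adjusted p = 0.0474 in the same edgeR test). Its controls did not move together, with 1.99 CPM in DRG3 against 14.7 and 12.2 CPM in DRG4 and DRG5, and the PNs ranged from 1.77 to 8.0 CPM. Sema3a was thus lower only against DRG4 and DRG5, the controls with the higher T cell scores and the lower Schwann cell scores, and the part of those cells in the difference was not tested.

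The most abundant semaphorin per length, Sema3b, had 274, 88.4 and 82.3 CPM in the controls, 123 to 542 CPM in the slow-growing and 179 to 319 CPM in the fast-growing PNs. Control DRG3 lay inside the PN range, and the log2 fold change of 0.97 (SE 0.43, edgeR with Benjamini-Hochberg adjusted p = 0.11) did not pass. Sema4f, another membrane semaphorin, was also not called, with 44.5 ± 25.1 CPM in controls, 63.7 ± 47.5 in slow-growing and 57.4 ± 25.8 in fast-growing PNs.

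**Figure D2:**
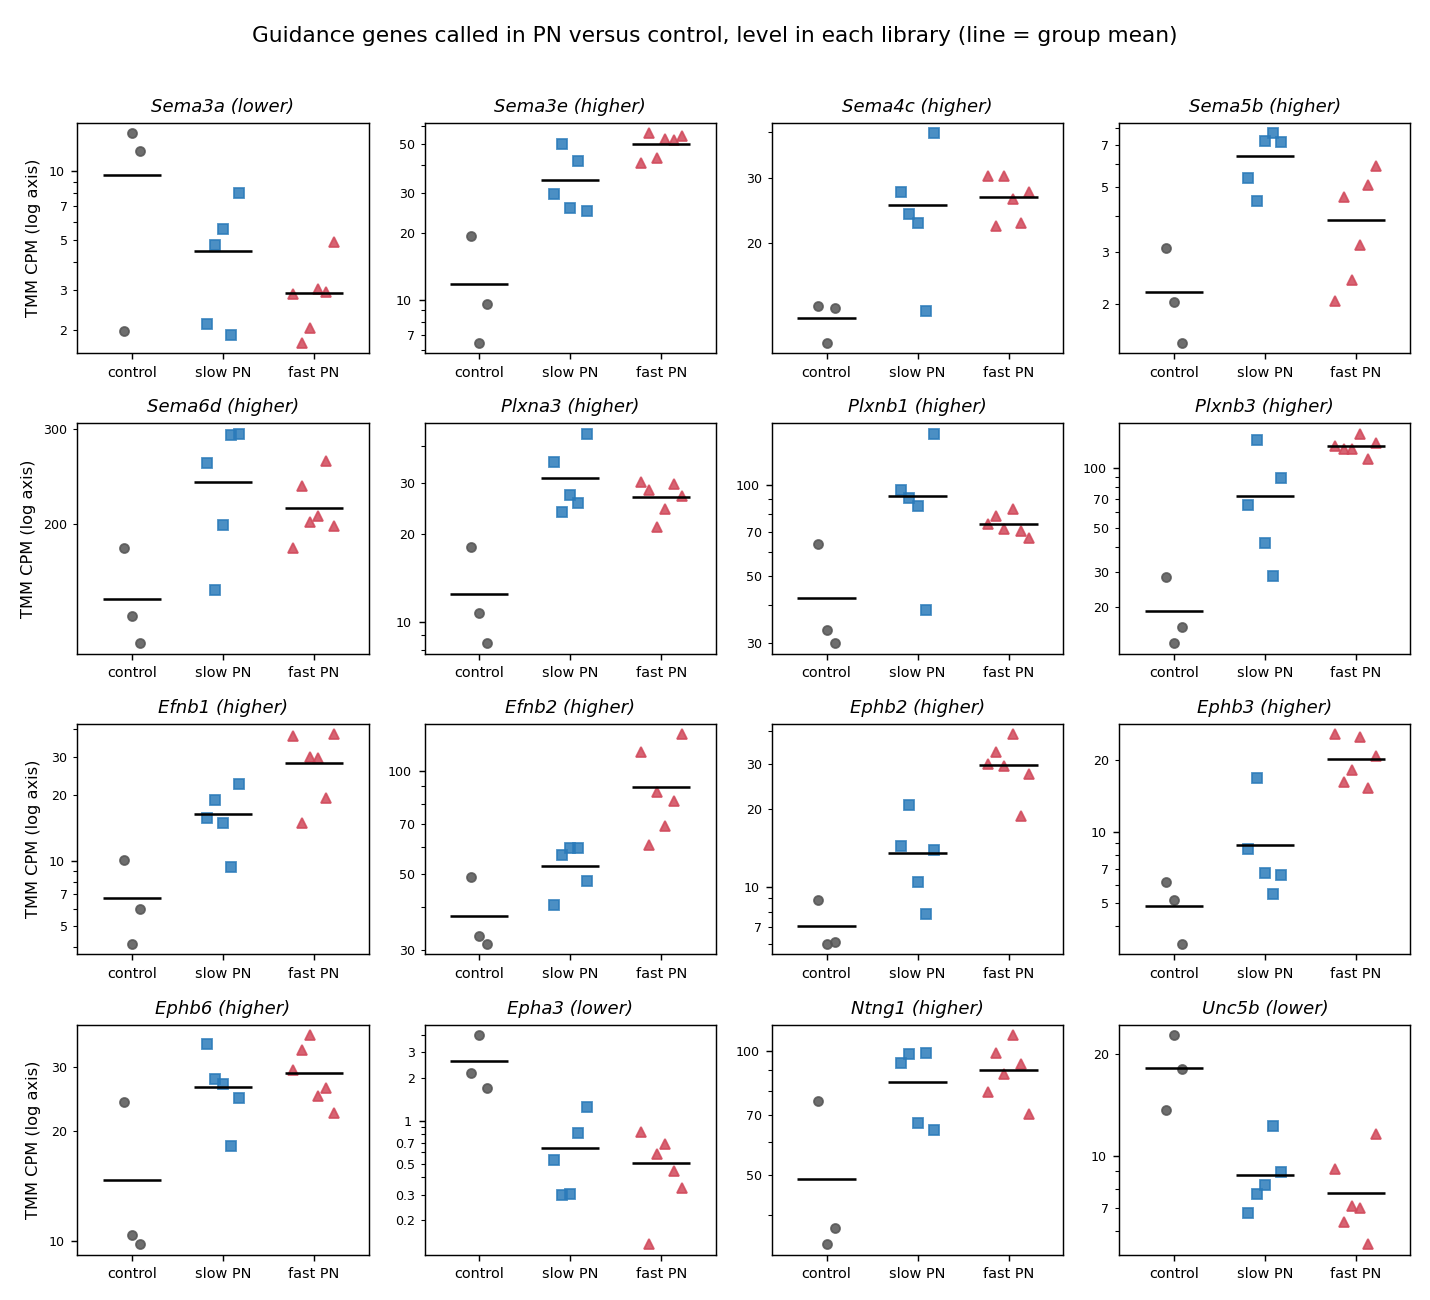
Level of the 16 guidance genes called in PNs versus controls, in TMM CPM on a log axis, with 1 point per library in the 3 controls, 5 slow-growing and 6 fast-growing PNs and a line at each group mean. Plxnb3, Sema3e and Plxna3 are higher, and Epha3 and Unc5b lower, in every PN than in any control, while Sema3a has 1 control among the PN values.

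Of the 9 plexins, the semaphorin receptors, 3 were called higher and none lower, beside 12.9% and 13.4% of all genes, and all 9 had a positive log2 fold change. Plxna3, a receptor for class 3 semaphorins together with neuropilins (chrX:74329066-74344689), measured 18.0, 10.7 and 8.44 CPM in the controls, 35.3, 23.7, 27.3, 25.5 and 44.1 CPM in the slow-growing and 21.1 to 30.1 CPM, median 27.6, in the fast-growing PNs. Every PN exceeded every control, and the log2 fold change was 1.21 (SE 0.25, edgeR with Benjamini-Hochberg adjusted p = 0.00264). Plxnb1, a receptor of Sema4d (chr9:109095389-109119917), averaged 42.3 ± 18.6 CPM in controls, 91.6 ± 38.6 in slow-growing and 74.2 ± 6.09 in fast-growing PNs, with a log2 fold change of 0.96 (SE 0.32, adjusted p = 0.0389 in the same edgeR test). Gm7628 overlaps an exon of Plxnb1 on the opposite strand.

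Neither neuropilin, the coreceptors of class 3 semaphorins, was called. Nrp1 averaged 127 ± 9.0 CPM in controls, 97.9 ± 24.8 in slow-growing and 127 ± 21 in fast-growing PNs, and Nrp2 averaged 165 ± 10.6, 169 ± 38.8 and 166 ± 38.5 CPM. Their log2 fold changes in PNs over controls were -0.16 (SE 0.21) and 0.02 (SE 0.19). The plexin highest per length, Plxnc1, a receptor of Sema7a, had 86.1 ± 15 CPM in controls and spread from 31.6 to 671 CPM over the PNs, so that its log2 fold change of 1.13 (SE 0.73) was not called.

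Among B-type ephrins 2 of 3 were higher, among EphB receptors 3 of 5, among A-type ephrins 0 of 4 tested and among EphA receptors 0 of 8 tested, with 1 EphA receptor lower, beside 12.9% and 13.4% of all genes called higher and lower. The difference between the classes was not tested, and all 5 calls of B-type ephrins and EphB receptors were lost without DRG4 and also without DRG5. Efnb1, the ligand ephrin-B1 (chrX:99136130-99148991), was at 10.1, 4.16 and 6.02 CPM in the controls, at 15.7, 19.1, 14.8, 9.40 and 22.6 CPM in the slow-growing and at 15 to 38.0 CPM, median 29.7, in the fast-growing PNs. Only PN 1203 fell within the control range, and the log2 fold change was 1.75 (SE 0.43, edgeR with Benjamini-Hochberg adjusted p = 0.00881). Efnb2, ephrin-B2 (chr8:8617434-8661242), measured 49.0, 33.0 and 31.2 CPM in the controls, 40.5, 56.7, 59.4, 59.5 and 47.5 CPM in the slow-growing and 60.6 to 127 CPM, median 83.8, in the fast-growing PNs. Its order was therefore controls, slow-growing and then fast-growing PNs, where controls and slow-growing PNs overlapped and slow-growing and fast-growing PNs did not, and the log2 fold change over all PNs was 0.95 (SE 0.32, adjusted p = 0.0424 in the same edgeR test). Efnb3 was not called, at 5.14 ± 2.82, 5.16 ± 2.92 and 3.78 ± 1.90 CPM.

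Ephb2, the EphB receptor linked to Schwann cell sorting (chr4:136647539-136835988), was at 8.89, 6.00 and 6.12 CPM in the controls, at 14.4, 20.8, 10.5, 7.84 and 13.9 CPM in the slow-growing and at 18.9 to 38.9 CPM, median 29.7, in the fast-growing PNs. Ephb3, its close relative (chr16:21204755-21223305), was at 6.13, 5.17 and 3.38 CPM in the controls, at 8.51, 16.8, 6.70, 5.47 and 6.55 CPM in the slow-growing and at 15.4 to 25.8 CPM, median 19.6, in the fast-growing PNs. Both genes were higher in every fast-growing PN than in any control, and both had slow-growing PN 1198A inside the fast-growing range and 1203 inside the control range. The log2 fold changes over all PNs were 1.67 (SE 0.45) and 1.62 (SE 0.50), with edgeR Benjamini-Hochberg adjusted p = 0.0152 and 0.0277.

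Ephb6, which lacks kinase activity (chr6:41605482-41620509), was higher by 0.91 (log2, SE 0.27, edgeR with Benjamini-Hochberg adjusted p = 0.0222), from 14.8 ± 8.02 CPM in controls to 26.5 ± 5.93 in slow-growing and 28.8 ± 5.37 in fast-growing PNs. Ephb4, the receptor of ephrin-B2 in vessels, had 12.5 ± 0.777, 17.3 ± 8.63 and 20.6 ± 5.67 CPM, and Ephb1 9.45 ± 5.45, 11.5 ± 5.44 and 6.72 ± 2.38 CPM, neither called. The leading A-type pair was not called either, with Efna5 at 23.8 ± 8.66, 29.7 ± 15.8 and 21.9 ± 7.28 CPM and Epha6 at 9.68 ± 5.43, 16.6 ± 8.87 and 7.78 ± 5.15 CPM in controls, slow-growing and fast-growing PNs.

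Slits and Robos gave no call in PNs versus controls. Slit2 averaged 77.1 ± 44.6 CPM in controls, 122 ± 45.3 in slow-growing and 85.2 ± 11.4 in fast-growing PNs, with a log2 fold change of 0.40 (SE 0.35), and Robo2 averaged 36.0 ± 19.9, 106 ± 106 and 63.1 ± 49.2 CPM with a log2 fold change of 1.20 (SE 0.95). Of the 6 netrins and netrin-Gs, which all had positive log2 fold changes, only Ntng1 was called. It encodes the membrane-anchored netrin-G1 (chr3:109780040-110144011) and stood at 75.6, 33.9 and 37.2 CPM in the controls, at 93.5, 98.3, 66.9, 99.0 and 64.4 CPM in the slow-growing and at 70.6 to 109.6 CPM, median 90.5, in the fast-growing PNs. DRG3 lay within the PN range while DRG4 and DRG5 lay below it, and the log2 fold change was 0.84 (SE 0.24, edgeR with Benjamini-Hochberg adjusted p = 0.018).

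Unc5b, a netrin receptor also known from vessels (chr10:60762593-60831581), was the only netrin receptor called, and it was lower. It measured 13.6, 22.8 and 18.0 CPM in the controls, 6.76, 7.74, 8.22, 12.2 and 8.96 CPM in the slow-growing and 5.47 to 11.6 CPM, median 7.06, in the fast-growing PNs. All PNs lay under the lowest control, with a log2 fold change of -1.14 (SE 0.22, edgeR with Benjamini-Hochberg adjusted p = 0.0019). Of 10 endothelial markers 9 had negative log2 fold changes in PNs, with a median of -0.75, and 2 were called lower, beside 13.4% of all genes. In fast-growing PNs 5 of 10 were called lower, with a median of -0.83, beside 16.7% of all genes. Of 8 pericyte and smooth muscle markers 3 were called lower in PNs, with a median of -1.44, and 5 lower and 1 higher in fast-growing PNs, with a median of -1.97. The summed endothelial level overlapped between the groups, at 416 to 524 CPM in controls, 125 to 612 CPM in slow-growing and 165 to 453 CPM in fast-growing PNs. The summed pericyte and smooth muscle level was 827 to 1117, 240.1 to 1327 and 297 to 482 CPM. No endothelial or pericyte marker was at 0 in all libraries of a group, and their part in the Unc5b difference was not tested. Unc5a was not called, with 8.36 ± 1.89 CPM in controls, 11.4 ± 3.68 in slow-growing and 11.9 ± 3.20 in fast-growing PNs.

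These calls leaned on the 3 controls. Without DRG4 or without DRG5, 4 members were called higher and 2 lower, and without DRG3 15 higher and 4 lower. Over all genes tested 6.16% and 8.77% were then called higher and lower without DRG4, 5.54% and 6.92% without DRG5, and 12.6% and 13% without DRG3. The 6 members called with any single library left out were Sema3e, Sema4c, Plxna3 and Plxnb3, higher, and Epha3 and Unc5b, lower. Some calls were also lost without single PNs. Over the 14 fits with 1 library left out, Sema3a lost its call in 11, Sema5b in 10, Plxnb1 in 9, Efnb2 in 8 and Sema6d in 5. Efnb1, Ephb2, Ephb3, Ephb6 and Ntng1 lost theirs only without DRG4 and without DRG5. With the muscle and fat scores in the model no member was called, and calls over all genes were 1.79% higher and 1.56% lower. The log2 fold change was then 1.42 for Plxna3, 1.31 for Plxnb1, 1.71 for Sema5b, -2.62 for Epha3 and -1.37 for Unc5b, each larger in size than without the scores, but 1.16 for Plxnb3, 0.99 for Sema3e, 0.52 for Ephb2, 0.54 for Efnb1, 0.07 for Ephb3 and -0.13 for Efnb2. With the Schwann cell score in the model, chosen after the data were seen, no member was called either, with 1.73% and 1.57% of all genes called. The log2 fold change was then 1.28 for Sema3e, 1.20 for Plxnb3, -1.92 for Epha3, -0.22 for Plxnb1 and -0.03 for Ephb6. It was 0.52 for Plxna3, 0.40 for Sema4c and -0.46 for Unc5b. Each of these values, Plxnb3 and Sema3e included, was smaller in size than without the score. The guidance calls and the tissue makeup of PNs and controls cannot be told apart in these fits. Of the 16 members, 6 and 2 had an unadjusted p under 0.05 in these models.

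Slow-growing and fast-growing PNs were next each set against the same 3 controls, so their values share those controls. In slow-growing PNs 3 of 68 members were called higher (Sema3e, Sema5b and Plxna3) and 2 lower (Epha3 and Unc5b), where 4.12% and 7.13% of 15714 genes tested were called. In fast-growing PNs 17 were called higher and 5 lower, where 14.8% and 16.7% of 16037 genes were called. With the muscle and fat scores in the model, no member and no other gene was called in either PN group. With the Schwann cell score no member was called in slow-growing PNs, beside 0.0955% and 0.0127% of all genes. In fast-growing PNs 3 were then higher and 0 lower, beside 5.77% and 5.31%. In the slow-growing fit without scores, all 14 Schwann cell markers (median 1.09, 3 called) and all 20 neuron markers (median 1.01, 0 called) had positive log2 fold changes. All 14 skeletal muscle markers (median -2.76, 0 called) and all 12 fat markers (median -1.53, 1 called) had negative ones. Many cell type markers were called in the fast-growing fit without scores. Of 9 fibroblast markers 7 were higher and the others lower, and all 12 fat and 12 of 14 skeletal muscle markers were lower. Of 14 Schwann cell markers 7 were higher, and the vessel markers were as given beside Unc5b. The summed fibroblast level was 2551 to 5231 CPM in controls and 9636 to 18818 CPM in fast-growing PNs, and the part of these cells in the member calls, the B-type ephrins included, was not tested. The fast-growing calls held 12 of the 13 members called higher over all PNs, all but Sema5b, and its 3 lower ones. The further members called higher were Sema3f, Sema6a, Plxnd1, Robo1 and Ntn4, and the further ones called lower were Sema6c and Epha1. An opposite-strand exon of Zyx overlaps Epha1.

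The plexin B3 gene had log2 fold changes of 1.89 (SE 0.54) in slow-growing and 2.71 (SE 0.25) in fast-growing PNs. Ephb2 had 0.91 (SE 0.34) and 2.03 (SE 0.25), Ephb3 had 0.81 (SE 0.42) and 2.0 (SE 0.27), and Efnb1 had 1.24 (SE 0.37) and 2.02 (SE 0.39). For these 4 genes the slow-growing value was the smaller, and it did not pass the test. Plxna3, at 1.29 (SE 0.32) and 1.06 (SE 0.23), and Sema4c, at 0.98 (SE 0.33) and 1.03 (SE 0.17), had more similar values, and all 6 of these genes overlapped between the PN groups. Sema6c, a membrane semaphorin, had 0.56 (SE 0.37) in slow-growing and -0.77 (SE 0.26) in fast-growing PNs, with the call only in the latter. That call was lost in 8 of 9 fits with 1 library left out, with adjusted p up to 0.196, and in 4 of 9 other settings. The slow-growing calls turned on single libraries, with none in either direction without DRG4, DRG5 or 1202, none higher and 1 lower without 1206, and 8 higher and 1 lower without 1203. Over all genes the calls without DRG4 were 1.31% higher and 2.96% lower, without DRG5 1.31% and 2.43%, without 1202 2.54% and 4.19%, without 1206 2.45% and 5.41%, and without 1203 5.56% and 6.99%. In fast-growing PNs 9 were higher without DRG4, 10 without DRG5 and 23 without DRG3, beside 9.30%, 10.3% and 14.8% of all genes.

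**Figure D3:**
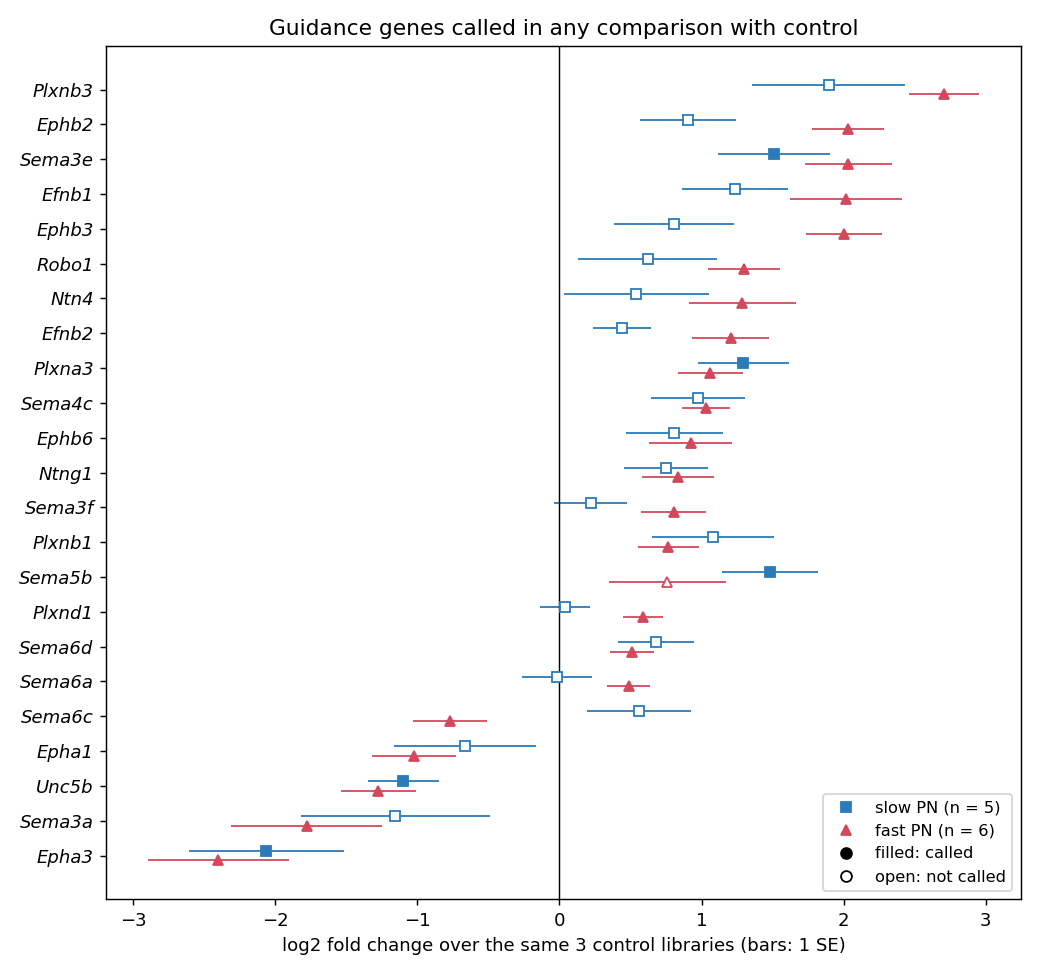
Log2 fold change over the same 3 controls in slow-growing (squares, n = 5) and fast-growing PNs (triangles, n = 6) for the members called in any comparison with control, with bars of 1 SE and filled symbols for calls. Ephb2, Ephb3, Efnb1 and Plxnb3 have larger values in fast-growing PNs, Plxna3 and Sema4c have similar ones, and Sema6c has opposite signs.

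The direct comparison of fast-growing with slow-growing PNs called no member in either direction, where 0.802% and 0.466% of 15465 genes tested were called higher and lower. At an unadjusted p under 0.05 there were 18 of 67 members, 12 higher and 6 lower, where 11.9% of all genes tested were higher and 8.51% lower. limma-voom also called none, and DESeq2 called 5 higher and 3 lower, where it called 5.50% and 4.66% of all genes. The members with the lowest p, named after their values were seen, were Sema6c, Ephb2, Ephb3, Plxnd1 and Efnb2.

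Sema6c stood at 32.2, 27.3, 28.7, 17.4 and 54.9 CPM in the slow-growing and at 9.26 to 19.5 CPM, median 12.2, in the fast-growing PNs, a log2 difference of -1.31 (SE 0.29, edgeR with Benjamini-Hochberg adjusted p = 0.0506). Apart from 1203 the slow-growing PNs lay above all fast-growing ones. For Ephb2 and Ephb3 the log2 differences were 1.13 (SE 0.25) and 1.20 (SE 0.29), with adjusted p = 0.0518 and 0.0575 in the same edgeR test, and the slow-growing PN 1198A was the only one inside the fast-growing range of either gene. Plxnd1, the Sema3e receptor known from vessels (chr6:115954811-115995005), measured 66.3, 76.8, 51.8, 82.9 and 76.0 CPM in the slow-growing and 84.9 to 118 CPM, median 107, in the fast-growing PNs, a log2 difference of 0.56 (SE 0.14, adjusted p = 0.0623 in edgeR). For Efnb2 the log2 difference was 0.77 (SE 0.20, adjusted p = 0.0695 in edgeR). Plxnd1 and Efnb2 were the 2 members whose PN groups did not overlap, both higher in fast-growing PNs, as were 2.10% of all genes tested, and no member was so separated in the lower direction, where 0.912% of genes were.

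Leaving out slow-growing PN 1198A gave 6 members called higher in fast-growing PNs and 1 called lower, where 5.69% and 1.95% of all genes were called. Without 1203 there were 3 and 4, where 1.43% and 2.27% of all genes were called. Without 1079, 1202, 1206, 1053 or 1191, no member was called, and in each of these fits only 2 of all genes tested were called, both higher. Without 1179 only 3 of all genes were called, and no member. Markers of other cell types were read in the same fit. Of 10 tested macrophage markers 1 was called higher in fast-growing PNs and 9 had positive log2 differences, with a median of 1.69, and their summed level was 63.9 to 531 CPM in slow-growing and 295 to 847 CPM in fast-growing PNs. All 20 neuron markers had negative log2 differences, with a median of -0.65 and no call. The summed fibroblast markers were 2042 to 11315 CPM in slow-growing and 9636 to 18818 CPM in fast-growing PNs, and the fat markers 20.4 to 3426 and 18.9 to 304 CPM. Of the 9 fibroblast markers 7 had positive log2 differences, with a median of 1.11, and all 11 tested fat markers had negative ones, with a median of -3.69, without a call in either list. The part of these cells in the member differences was not tested.

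A list of 79 genes that work with these cues and receptors, called effectors here, was read in the same fits, with 78 tested against control. It held coreceptors, other receptors, ligands and adhesion genes besides downstream effectors. In PNs versus controls 18 were called higher and 3 lower, with a median log2 fold change of 0.35, beside 12.9%, 13.4% and 0.10 over all genes. Slow-growing PNs had 5 higher and 1 lower, beside 4.12% and 7.13% of all genes, and fast-growing PNs 20 higher and 6 lower, beside 14.8% and 16.7%. Between the PN groups 3 of 77 were higher in fast-growing PNs and none lower, beside 0.802% and 0.466%. In PNs versus controls, 10 were higher without DRG4, beside 6.16% of all genes, and 7 without DRG5, beside 5.54%. With the muscle and fat scores 1 was higher and 0 lower, beside 1.79% and 1.56% of all genes. The Schwann cell score also gave 1 and 0, beside 1.73% and 1.57%. The 3 with the lowest p in PNs versus controls were Rnd1, Kdr and Pak1. Rnd1, whose product binds plexins, was at 0.892 ± 0.25 CPM in controls, 4.67 ± 0.797 in slow-growing and 4.61 ± 0.591 in fast-growing PNs, without overlap between PNs and controls. Its log2 fold change was 2.37 (SE 0.25, edgeR with Benjamini-Hochberg adjusted p = 1.49e-05), and it was called under every alternative run for PNs versus controls, the tissue scores included.

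Pak1, a kinase activated by Rac and Cdc42, was at 45.8 ± 13.5, 100.4 ± 18.4 and 119 ± 15.5 CPM in controls, slow-growing and fast-growing PNs, and the PN log2 fold change was 1.27 (SE 0.21, adjusted p = 0.000579 in the same edgeR test). Kdr, the VEGF receptor of endothelial cells and a partner of neuropilin 1, fell by 1.84 on the log2 scale (SE 0.30, adjusted p = 0.000498 in edgeR), from 48.4 to 91.1 CPM in controls to 13.2 to 44.5 CPM in slow-growing and 13.4 to 27.4 CPM in fast-growing PNs. In that comparison 2 of 10 endothelial and 3 of 8 pericyte and smooth muscle markers were also called lower, and their part in the Kdr difference was not tested. Pak1 and Kdr were called with any single library left out, and each lost its call in 2 of 10 other settings. The effectors called higher in fast-growing than in slow-growing PNs, named after their values were seen, were Sdc1, Myo10 and Cd72. Sdc1, the heparan sulfate proteoglycan syndecan-1, had 11.5 ± 2.86 CPM in slow-growing and 23.4 ± 4.42 in fast-growing PNs. Myo10, a myosin of filopodia, had 76.1 ± 17.5 and 137 ± 22.2 CPM, and Cd72, a Sema4d receptor of B cells, had 1.24 ± 0.866 and 11.9 ± 8.08 CPM. The log2 differences were 1.03 (SE 0.20), 0.85 (SE 0.17) and 3.22 (SE 0.65), each with an edgeR Benjamini-Hochberg adjusted p = 0.0449. Each of the 3 calls was lost in 8 of 11 fits with 1 library left out, with adjusted p up to 0.129. The first 2 genes had no overlap between the PN groups, and neither did Cd72, with 2.25 CPM as the highest slow-growing and 2.52 as the lowest fast-growing value.

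Some members had their extremes in the libraries with the lowest and highest neuron markers, which lie in different PN groups. The neuron markers summed to 56.2 CPM in fast-growing PN 1191 and to 17992 CPM in slow-growing PN 1203. Robo2, the Slit receptor of axons, was at 1.06 CPM in 1191 and at 288 CPM in 1203, and at 19.3 to 131 CPM in the other 12 libraries. Slit1 stood at 0.529 and 101 CPM in these libraries and at 6.65 to 49.9 CPM elsewhere, Plxnc1 at 31.6 and 671 CPM against 68.9 to 279, and Epha6 at 0.151 and 29.4 CPM against 3.49 to 19.0. For each of these 4 genes 1191 was thus the lowest and 1203 the highest of the 14 libraries. In all, 10 of 68 tested members (14.7%) had this pattern, the others being Plxna2, Efna5, Unc5c, Unc5d, Sema4b and Sema4f, beside 11% of all genes tested. Their counts in 1191 were 14 for Robo2, 7 for Slit1 and 2 for Epha6.

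Plxnb3 and Sema3e did not share this order, with 148 and 52.6 CPM in 1191 and 28.6 and 41.8 CPM in 1203. Over the 68 tested members, 1191 was the lowest library for 12 and the highest for 10, and 1203 the lowest for 14 and the highest for 17, where among all tested genes the shares were 18.5% and 13.6% for 1191 and 17.5% and 24.7% for 1203. With both libraries left out, a choice made after the data were seen, 12 members were called higher and 3 lower in PNs versus controls, beside 14% and 16% of all genes. With the neuron score in the model 14 were higher and 3 lower, beside 17.2% and 16.6%.

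**Figure D4:**
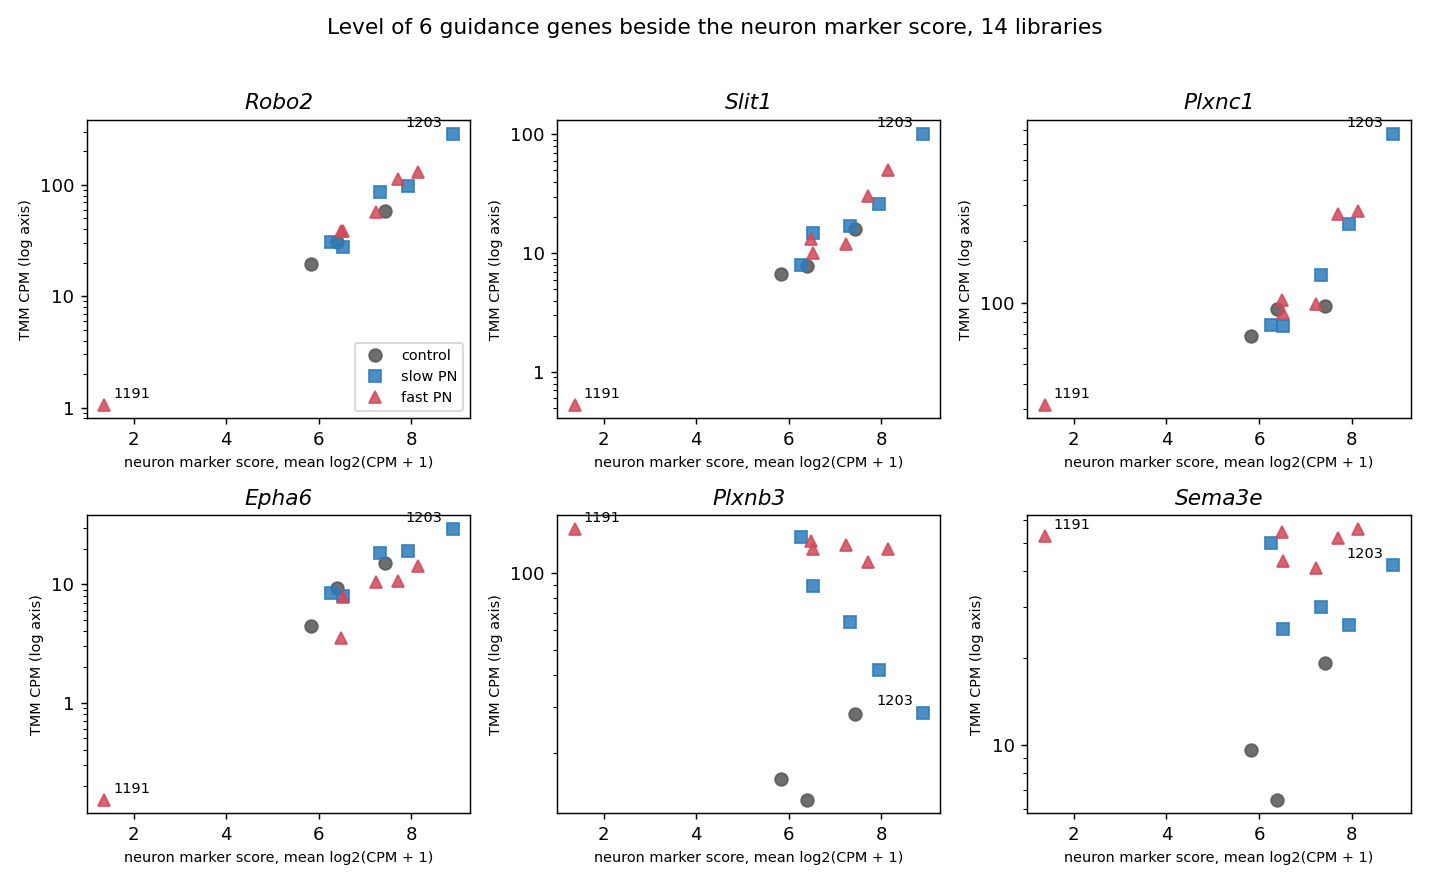
Level of 6 guidance genes (TMM CPM, log axis) against the neuron marker score, the mean log2(CPM + 1) over 20 markers, in each of the 14 libraries. Robo2, Slit1, Plxnc1 and Epha6 are lowest in fast-growing PN 1191, at a neuron score of 1.37, and highest in slow-growing PN 1203, at 8.89, whereas Plxnb3 and Sema3e are high in 1191.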

How the data were processed

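Bulk RNA-seq libraries from 3 control DRG with nerves and 11 PNs were made from total RNA amplified with the Ovation RNA-Seq System. Per the labels, the authors used CASAVA 1.4, FastQC 0.11.0, TopHat2 2.0.9, featureCounts 1.5.2 and edgeR 3.16.5 with mm10, and the deposited table used here holds their raw read counts per gene. The gene annotation and the strand setting are not given in the sources used here, and the deposited log2 table was not used. Amplification and ribosomal RNA (Rn45s up to 18.1% of counts) can alter levels, so values are relative to the library.

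Counts were tested as deposited with edgeR 4.0.16 (R 4.3.3) by the quasi-likelihood test, with TMM scaling, filterByExpr and Benjamini-Hochberg adjustment over all genes tested, at a threshold of 0.05. PNs versus controls, slow-growing PNs versus controls, fast-growing PNs versus controls and fast-growing versus slow-growing PNs were each fitted on their own libraries. CPM values are given as mean ± SD, and 3 counts were taken as the floor. limma 3.58.1, DESeq2 1.42.0, other scaling and filters, tissue scores as covariates and leaving out each library were alternatives. The fits were tested on simulated data. Gene coordinates came from GENCODE M21 (mm10), which matched 22758 symbols directly and 934 by older symbols, with 370 unmatched. Within a group, log2 levels of libraries correlated at 0.848 to 0.980, and no pair was identical. Named genes were the members called in PNs versus controls, the highest member of each class per length and the 3 effectors with the lowest p. Nrp2, Efnb3, Ephb1, Ephb4 and Slit1 were named outside this rule, and other exceptions are said where they occur. The members and lists were chosen with earlier results of these data known.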

Additional observations from a re-analysis of the deposited data

Results flagged for a closer look

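In the slow-growing PNs, 3 named genes had 1 library far above the rest. Ephb3 stood at 16.8 CPM in 1198A against 8.51 CPM in the next library, a gap of 0.733 of the group's range. Plxnc1 stood at 671 CPM in 1203 against 243 CPM, a gap of 0.721, and Robo2 at 288 CPM in 1203 against 97.3 CPM, a gap of 0.733. The limit for 5 libraries was 0.71. Of 78 group tests over 39 genes 3 passed, and chance gives about 1 in 20. Library 1203 also had the highest neuron score, 8.89, and its part in the Plxnc1 and Robo2 values was not tested. Between the PN groups, 3 effectors were called higher in fast-growing PNs, with log2 differences of 1.03 for Sdc1, 3.22 for Cd72 and 0.85 for Myo10.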

How the results depend on the processing

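Counts below give members called higher, then lower. With any single library left out they ranged from 4 to 15 and from 2 to 4 in PNs versus controls, 0 to 8 and 0 to 1 for slow-growing, 9 to 23 and 3 to 6 for fast-growing PNs against controls, and 0 to 6 and 0 to 4 between PN groups. For effectors the ranges were 7 to 20 and 2 to 5, 1 to 9 and 0 to 2, 16 to 22 and 3 to 6, and 0 to 9 and 0 to 1 in the same order. The shares of all genes in these fits ran from 5.54% to 15.2% higher and from 6.92% to 14.3% lower in PNs. Slow-growing PNs had 1.31% to 5.69% and 2.43% to 9.57%, and fast-growing PNs 9.30% to 14.8% and 10.2% to 17.4%. Between PN groups the shares were 0.0128% to 5.69% and 0% to 2.27%. The log2 fold change of Efna5 in PNs versus controls then ran from -0.0908 to 0.44, and that of Epha6 from -0.0636 to 0.78.

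With muscle and fat scores as covariates, 0 and 0 members were called against controls in PNs, slow-growing and fast-growing PNs. Effectors gave 1 and 0 in PNs, 0 and 0 in both PN groups and 0 higher between PN groups. These models called 1.79% and 1.56% of all genes in PNs and 0% in either direction in the other comparisons. In that fit log2 fold changes in PNs were -0.13 for Efnb2 and -0.0178 for Unc5a, and in fast-growing PNs -0.10 for Ntn4, -0.0626 for Sema6a, -0.12 for Plxnd1 and -0.59 for Efnb2. With the Schwann cell score, members gave 0 and 0 in all PNs and in the slow-growing ones, 3 and 0 in the fast-growing ones and 2 and 2 between PN groups. Effectors gave 1 and 0, 0 and 0, 7 and 3, and 5 and 2. The shares of all genes were 1.73% and 1.57%, 0.0955% and 0.0127%, 5.77% and 5.31%, and 1.77% and 1.68% in the same order. In PNs the log2 fold change was then -0.0343 for Ephb6, -0.22 for Plxnb1, -0.68 for Sema3b, 0.17 for Nrp1 and -0.79 for Slit2, and in fast-growing PNs 1.44 for Sema3a and -0.14 for Ephb6. With the neuron score, members gave 8 lower in fast-growing PNs and 1 and 1 between PN groups. Effectors gave 6 lower in PNs, 0 lower in slow-growing and 10 lower in fast-growing PNs, and 5 and 1 between PN groups. Of all genes, 16.6% were then lower in PNs, 7.24% in slow-growing and 20.8% in fast-growing PNs. Between PN groups 1.55% and 1.36% were called. In PNs Efna5 had -0.00915 and Epha6 -0.30 in this model.

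DESeq2 called 7 members higher in slow-growing PNs, beside 10.2% of all genes, and 5 and 3 between PN groups, beside 5.50% and 4.66%. Its effectors were at 5 lower in PNs, 11 and 3 in slow-growing PNs and 10 and 2 between PN groups. It called 16.5% of all genes lower in PNs and 12.2% lower in slow-growing PNs. RLE scaling gave 5 effectors lower in PNs, beside 14.7% of all genes. limma-voom gave 0 effectors higher between PN groups, beside 0.175% of all genes, and -0.25 for Epha6 in PNs. A fit of all 14 libraries gave 10 members higher in slow-growing PNs, beside 9.78% of all genes, 3 lower in fast-growing PNs, beside 14.6%, 3 and 1 between PN groups, and effectors at 12 and 3 in slow-growing PNs and 1 lower between PN groups. Without a count filter 1 member was lower in slow-growing PNs, beside 4.71% of all genes. A length and GC offset gave 10 effectors higher in PNs, beside 10.6% of all genes, and 1 member lower between PN groups, beside 0.719%. Efna5 had -0.0816 in PNs under this offset. Without both 1191 and 1203, effectors had 5 lower in PNs, beside 16% of all genes. Between PN groups 1 effector and 4 members were then lower, beside 2.46% of all genes. Efna5 then had -0.0539 in PNs. The causes were not tested. Of the values of single genes, 1025 kept their direction and side of the threshold, 273 kept the direction and lost the call, 25 gained it and 22 changed sign. The Schwann cell score and the joint omission of 1191 and 1203 were added after the data were seen.

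No paired analysis was possible because the groups share no replicate numbers. With 3 controls, 1 library set many calls, and Epha3 rested on 81 counts over all PNs.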
